A study of Rattus norvegicus with 36 samples.

Results

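The 10 genes described here are encoded by the mitochondrial genome of the rat and make protein subunits of the respiratory chain and of ATP synthase. They were taken from a fixed list of row identifiers in the count table, with the symbols given by that list, since the deposited tables hold no gene names. All 10 identifiers were found among the 32883 genes of the table, and all 10 passed the filter on low counts that left 15644 genes for testing. By complex, the 4 members of complex I were mt-Nd1 (ENSRNOG00000030644), mt-Nd2 (ENSRNOG00000031033), mt-Nd4 (ENSRNOG00000029707) and mt-Nd5 (ENSRNOG00000029971). The member of complex III was mt-Cyb (ENSRNOG00000031766), and those of complex IV were mt-Co1 (ENSRNOG00000034234), mt-Co2 (ENSRNOG00000030371) and mt-Co3 (ENSRNOG00000030700). The members of complex V were mt-Atp6 (ENSRNOG00000031979) and mt-Atp8 (ENSRNOG00000033299). The list leaves out other mitochondrially encoded genes, namely mt-Nd3, mt-Nd4l and mt-Nd6 of complex I and the ribosomal RNAs mt-Rnr1 and mt-Rnr2. Shares given below for the members and for complex I cover the listed genes only.

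Mitochondria keep a small circular genome whose genes are read from long transcripts that are cut into single messages. The messages are known to differ in how long each lasts. Complex I takes electrons from NADH, complex III passes them to cytochrome c, complex IV hands them to oxygen, and complex V uses the proton gradient to make ATP. Each of these complexes also needs subunits encoded in the nucleus. In lung, the alveolar type II cell, which makes surfactant, is known for its many mitochondria. mt-Atp8 and mt-Atp6 overlap on one message, so the split of reads between them is uncertain, and nuclear copies of mitochondrial sequence can take or lend reads.

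The libraries were made from RNA of precision-cut slices of rat lung, which are thin pieces of tissue held alive in a dish, in a study of slices as a test bed for drugs against fibrosis. The 36 libraries formed 6 groups of 6. Those without treatment carried the time labels 0 and 72, those with TGFb the label 72, and at 72 there were also groups with TGFb plus Pirf, Nint or Sora. The labels state neither the unit of time nor any dose, strain or age, and what is known of the study gives pirfenidone, nintedanib and sorafenib for Pirf, Nint and Sora. TGFb is a growth factor that drives fibrosis, pirfenidone and nintedanib are anti-fibrotic drugs, and nintedanib and sorafenib inhibit receptor kinases. A slice holds all the cell types of the lung, and fewer cells rich in mitochondria cannot be told apart from less mitochondrial RNA per cell. Markers of lung cell types were not used here, because no identifier of the table is paired with a name. The labels do not tie replicates to animals, so the p-values rest on a spread between samples that may be technical only.

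Total counts per library lay between 15886958 and 32933012, and the counts of single members between 1138 and 458690, so that counting error was small beside the spread between libraries. All 360 member values were whole numbers, whereas 8.59% of all values in the table were not. The share of counts outside the authors' table of expressed protein-coding genes, which holds all 10 members, was 13.6% ± 0.728 (SD, n = 6) with TGFb and Pirf and 11.2% ± 1.12 to 12.7% ± 1.27 in the other groups. Scaling factors by the trimmed mean of M values (TMM) averaged 1.07 ± 0.00884 with TGFb and Pirf against 0.964 ± 0.0509 with TGFb alone. Their part in the results was not tested beyond alternatives without factors, with factors made without the members, and with DESeq2 and its own scaling.

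The 10 members together took a similar share of all counts in every group. The share was 1.83% ± 0.314 (SD, n = 6) in untreated slices at time 0, with a lowest library of 1.42%, a median of 1.85% and a highest of 2.20%. In untreated slices at 72 it was 1.78% ± 0.140 (lowest 1.64%, median 1.76%, highest 2.02%). With TGFb alone it was 1.96% ± 0.258 (lowest 1.74%, median 1.87%, highest 2.44%). The ranges of these groups overlapped, and the time-0 libraries were the most spread out. With TGFb and Pirf the share was 2.06% ± 0.117 (lowest 1.92%, median 2.04%, highest 2.21%). With TGFb and Nint it was 1.92% ± 0.163 (lowest 1.77%, median 1.89%, highest 2.21%). With TGFb and Sora it was 1.98% ± 0.233 (lowest 1.78%, median 1.95%, highest 2.43%). All Pirf libraries lay within the range of the TGFb-alone libraries. No test was made on this share, since it is a sum over chosen genes.

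**Figure D1:**
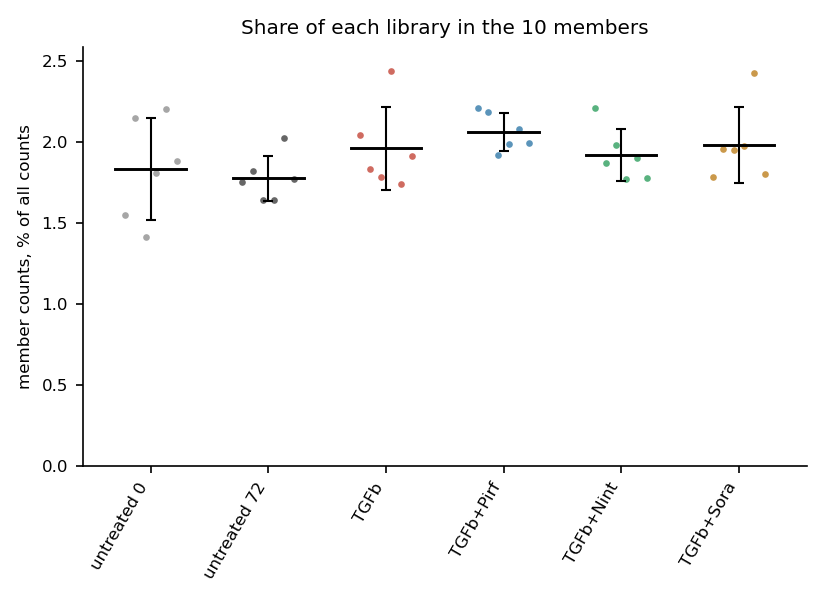
Share of all counts in the 10 members, in percent, for each library (points, 6 per group) with the group mean and SD. The group means lie between 1.78% and 2.06%, and the ranges of all groups overlap.

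Single libraries moved nearly all members at once. In the TGFb-alone group replicate 4 was the highest library for 9 of the 10 members, and in untreated slices at 72 replicate 5 was the highest for all 10. Replicate 1 with Nint was the highest for 9 members, and replicate 5 with Sora for 8. At time 0, replicate 5 was the highest for 8 members and replicate 3 the lowest for 8. Each of the 4 high libraries at 72 also had the lowest TMM factor of its group, at 0.894, 0.952, 0.935 and 0.968 in the order named. Their shares of counts outside the coding table, 12.8%, 12.4%, 13.3% and 13.3%, were the highest or the second highest of their groups. The other 2 groups differed in the factor. At time 0 the lowest factor, 0.910, was that of replicate 1, the highest library for 0 members, and replicate 5 had 0.953. With Pirf replicate 1 was the highest for 6 members at 1.069, and the lowest factor, 1.059, was that of replicate 3, the lowest library for 5. Replicate 5 at time 0 and replicate 1 with Pirf had the highest outside shares, 14.2% and 14.3%. The part of these measures in the member levels was not tested.

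**Figure D2:**
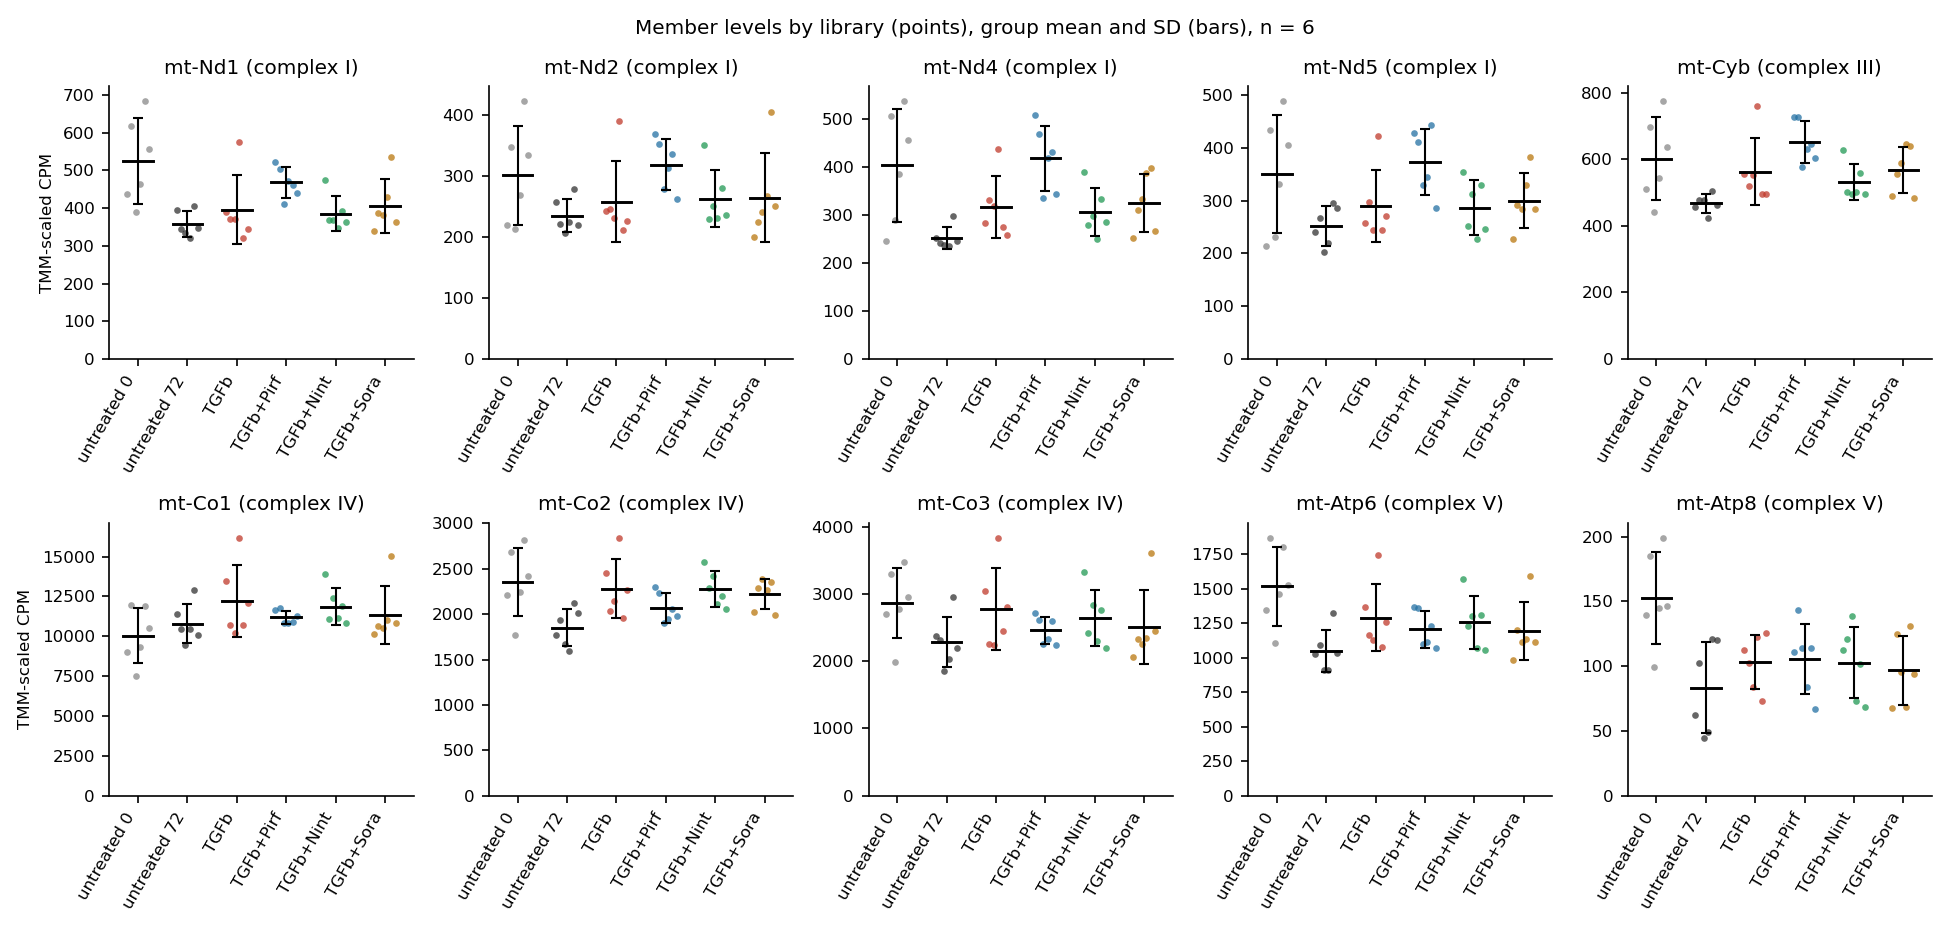
Level of each member in TMM-scaled CPM, one panel per gene, for each library (points), with the mean and SD of each group of 6. The complex I members and mt-Cyb have their 2 highest group means at time 0 and with TGFb and Pirf, and mt-Co1 does not.

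Most members were lower after culture without treatment, and the 4 members with the largest falls were mt-Atp8, mt-Nd4, mt-Nd1 and mt-Atp6 of complexes V and I. Levels are given here as CPM, counts relative to the TMM-scaled library total, and p-values are from edgeR's quasi-likelihood test with Benjamini-Hochberg adjustment over all 15644 genes, with calls at an adjusted p under 0.05. Between time 0 and 72, 8 of the 10 members were called lower and 0 higher. In the same comparison 35.3% of all genes were called lower and 38% higher (73.2% in all). The median log2 fold change was -0.42 over the members and 0.02 over all genes tested. Ranked from the lowest among all genes tested, the members' fold changes stood between percentile 15.8 (mt-Atp8) and 53.7 (mt-Co1). Falls of this size were thus common among all genes. The groups of single members overlapped in CPM in every comparison made, so the number without overlap was 0 of 10 each time. Over all genes the share without overlap was 49.3% for culture, 13.6% for TGFb, and 29.7%, 3.11% and 4.65% for Pirf, Nint and Sora against TGFb alone. For Nint against Pirf, Sora against Pirf and Sora against Nint it was 39.7%, 23.4% and 4.68%.

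In complex I, mt-Nd4, a proton-pumping subunit, had a lowest level of 245 CPM, a median of 421 and a highest of 536 at time 0. In untreated slices at 72 its level was 236 at the lowest, 243 in the median and 298 at the highest. Replicates 1 and 3 at time 0, with 245 and 289 CPM, lay inside the range at 72, so the groups overlapped. The log2 fold change of mt-Nd4 was -0.68 (SE 0.16, adjusted p = 0.000268). mt-Nd1, the subunit beside the quinone-binding site, stood at 389, 510 and 682 CPM (lowest, median, highest) at time 0 and at 321, 347 and 405 at 72. Its log2 fold change was -0.55 (SE 0.13, adjusted p = 0.00027), and the 2 ranges overlapped only between 389 and 405 CPM. mt-Nd5, another pumping subunit, fell by 0.48 on the log2 scale (SE 0.17, adjusted p = 0.0138), a call lost without replicate 5 at time 0 (adjusted p = 0.063). mt-Nd2, also a pumping subunit, stood at -0.36 on that scale (SE 0.16, adjusted p = 0.0511) and was not called. Without replicates 1, 3 or 4 at time 0, or replicate 5 at 72, mt-Nd2 was called as well (adjusted p = 0.0191 to 0.0464), and DESeq2 called it with all libraries (adjusted p = 0.0261).

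mt-Cyb, cytochrome b of complex III, ranged from 441 to 773 CPM at time 0 with a median of 591, and from 422 to 506 at 72 with a median of 471. It fell by 0.36 on the log2 scale (SE 0.11, adjusted p = 0.00394). In complex V, mt-Atp6, which forms part of the proton channel, stood at 1102, 1493 and 1866 CPM (lowest, median, highest) at time 0 and at 911, 1030 and 1320 at 72. It fell by 0.53 (SE 0.13, adjusted p = 0.000463). mt-Atp8, a small subunit of the stalk region, had 99.3, 146 and 199 CPM at time 0 and 44.8, 82.5 and 121 at 72. Its log2 fold change of -0.87 (SE 0.24, adjusted p = 0.00152) was the largest in size among the members. At 72 its untreated libraries fell into a lower and a higher set of 3, visible in the plot of levels by group.

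The 3 members of complex IV, which form its catalytic core, did not move as one. mt-Co1, which carries the oxygen-reducing centre, stood at 7514, 9934 and 11942 CPM (lowest, median, highest) at time 0 and at 9453, 10453 and 12926 at 72. Its log2 fold change was 0.10 (SE 0.11, adjusted p = 0.409), with a 95% interval of -0.12 to 0.33. mt-Co2, which takes electrons from cytochrome c, fell by 0.35 (SE 0.095, adjusted p = 0.00142), from 2358 ± 375 to 1852 ± 206 CPM (SD, n = 6). mt-Co3, the third core subunit, fell by 0.33 (SE 0.14, adjusted p = 0.0374). That call was lost without replicates 2, 5 or 6 at time 0 or replicates 2, 3, 4 or 6 at 72 (adjusted p = 0.0516 to 0.107) and with the number in the sample code as a factor (0.0935). Against a fold of 1.2 in place of no change, mt-Nd1, mt-Nd4, mt-Atp6 and mt-Atp8 remained called.

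**Figure D3:**
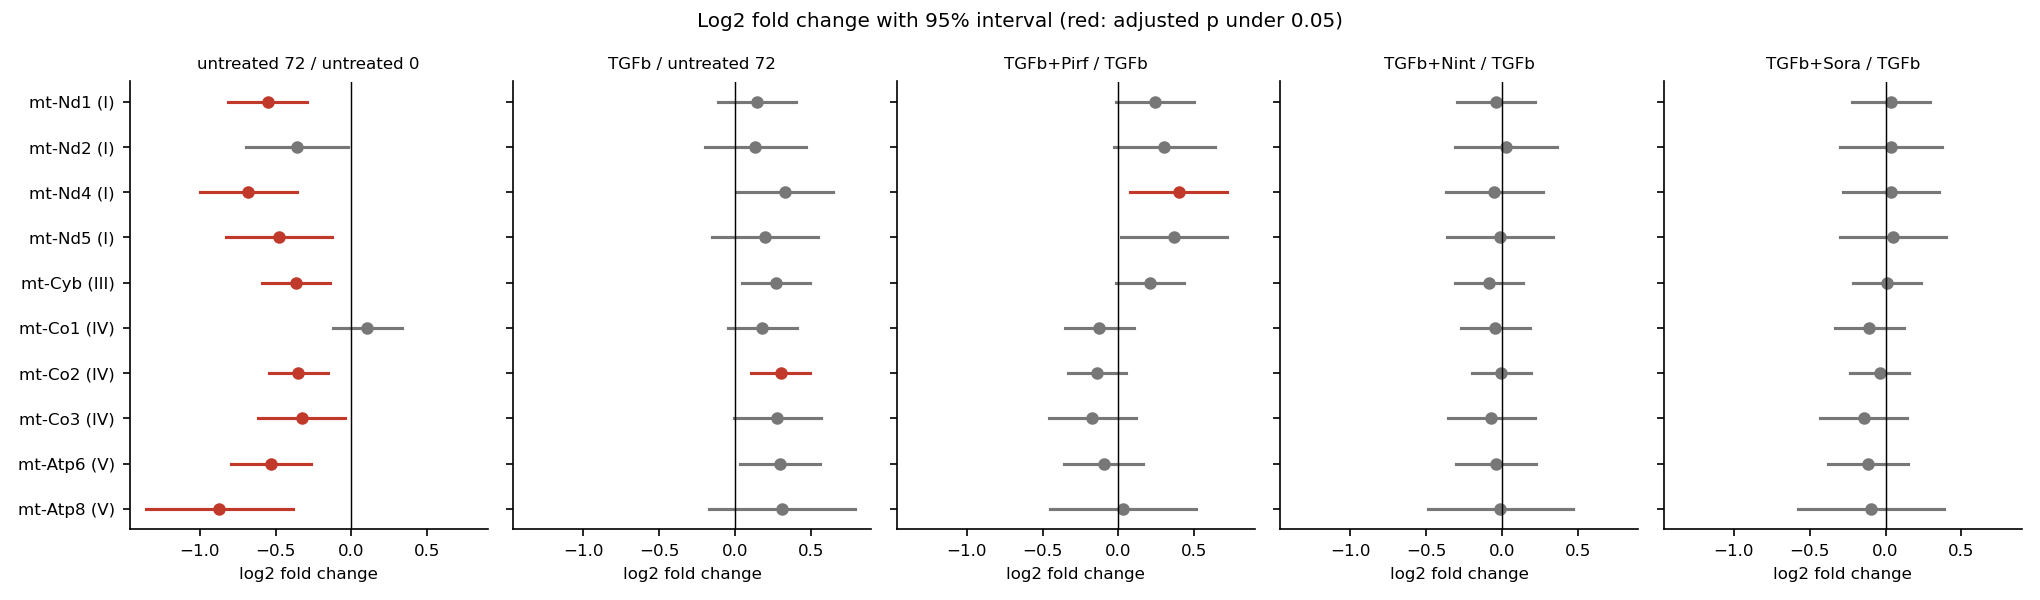
Log2 fold change of each member (points) with its 95% interval (lines) in the 5 comparisons named above the panels, with red for an adjusted p under 0.05. In culture 8 members lie below 0 and are called, while TGFb and Pirf each have 1 called member above 0 and Nint and Sora have 0.

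The TGFb-alone libraries were then set against the untreated ones at 72. mt-Co2 was the 1 member called, and all 10 log2 fold changes were above 0. In this comparison 14% of all genes were called higher and 12.4% lower (26.4% in all), so a count of 1 in 10 is near the background. mt-Co2 stood at 1596, 1857 and 2125 CPM (lowest, median, highest) without TGFb and at 1961, 2203 and 2840 with it, and the groups overlapped between 1961 and 2125. Its log2 fold change was 0.30 (SE 0.095, adjusted p = 0.0165). The call was lost without untreated replicate 3 (0.0564), without TGFb-alone replicate 4 (0.0726) and against a fold of 1.2 (0.561).

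The other members had log2 fold changes between 0.14 for mt-Nd2 and 0.33 for mt-Nd4, which did not pass the threshold (adjusted p = 0.605 and 0.122). mt-Atp6 reached 0.30 (SE 0.13, adjusted p = 0.0888) and mt-Cyb 0.27 (SE 0.11, adjusted p = 0.0691). mt-Atp6 was called without untreated replicate 5 (adjusted p = 0.0348), and mt-Cyb without TGFb-alone replicate 5 (0.0498). The median over the members was 0.27, against 0.02 over all genes tested. In the TGFb-alone group replicate 4, the highest library for 9 members, held 576 CPM of mt-Nd1 while the next highest held 391. Without that library the log2 fold change of mt-Nd2 was -0.02.

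Pirf on top of TGFb was compared with TGFb alone. mt-Nd4 was higher with Pirf and was the 1 member called. Called genes made up 25.1% of all genes in the higher direction and 26.4% in the lower (51.5% in all), so the number of members called was below the background. mt-Nd4 stood at 258, 300 and 437 CPM (lowest, median, highest) with TGFb alone and at 334, 425 and 508 with Pirf. Replicate 4 of the TGFb-alone group gave the 437 and the next highest held 330, so that the overlap came from 1 library. The log2 fold change was 0.40 (SE 0.16, adjusted p = 0.0332).

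The other complex I members and mt-Cyb lay on the same side of 0 without passing the threshold. Their log2 fold changes were 0.37 for mt-Nd5 (SE 0.17, adjusted p = 0.071), 0.30 for mt-Nd2 (SE 0.16, 0.122), 0.24 for mt-Nd1 (SE 0.13, 0.113) and 0.21 for mt-Cyb (SE 0.11, 0.111). mt-Nd1 ranged from 411 to 521 CPM with Pirf (median 466) and from 321 to 576 with TGFb alone (median 372). mt-Cyb ranged from 576 to 727 CPM with Pirf (median 637) and from 495 to 760 with TGFb alone (median 536). In both genes all 6 Pirf libraries exceeded 5 of the 6 TGFb-alone libraries, and TGFb-alone replicate 4 lay above every Pirf library. Members of complexes IV and V were not called, with log2 fold changes of -0.13 for mt-Co1, -0.14 for mt-Co2, -0.17 for mt-Co3, -0.10 for mt-Atp6 and 0.03 for mt-Atp8. mt-Co1 stood at 11189 ± 422 CPM (SD, n = 6) with Pirf, the smallest SD of the 6 groups for this gene, and at 12221 ± 2274 with TGFb alone.

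The number of members called with Pirf depended on single libraries and on the scaling. Without TGFb-alone replicate 4 it was 5, namely the 4 complex I members and mt-Cyb, with adjusted p = 0.00876, 0.0175, 0.0147 and 0.0139 for mt-Nd1, mt-Nd2, mt-Nd5 and mt-Cyb. On library totals alone the same 5 members were called higher, while the median of all genes moved to 0.15 on the log2 scale, and mt-Co1, mt-Co2 and mt-Atp6 changed sign. Without the factors mt-Nd1 and mt-Cyb had log2 fold changes of 0.40 and 0.37, to be read against that shift. The mt-Nd4 call was lost without TGFb-alone replicates 1, 5 or 6 or Pirf replicates 1 or 2 (adjusted p = 0.0669 to 0.088), and against a fold of 1.2 (0.199). Without Pirf replicate 6, mt-Nd5 was called too (adjusted p = 0.0412). When only these 12 libraries were fitted, mt-Nd4 and mt-Nd5 were called, mt-Nd5 with 0.0487.

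Nint and Sora, each against TGFb alone, left 0 members called, where 3.09% of all genes were called with Nint and 15.4% with Sora. The number of members with an unadjusted p under 0.05 was 0 for both, and DESeq2 and limma also called 0. With Nint the log2 fold changes lay between -0.09 for mt-Cyb and 0.03 for mt-Nd2. The 95% interval of mt-Nd4 ran from -0.37 to 0.27 with Nint and from -0.28 to 0.35 with Sora, beside 0.08 to 0.72 with Pirf. With Sora the log2 fold changes lay between -0.15 for mt-Co3 and 0.05 for mt-Nd5. mt-Nd4 stood at 250, 292 and 389 CPM (lowest, median, highest) with Nint and at 252, 321 and 397 with Sora. Both ranges began just below the lowest TGFb-alone library and ended inside the TGFb-alone range. The 3 drug comparisons share the TGFb-alone libraries, replicate 4 included.

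The drugs were then compared with each other, without known doses. These 3 pairs do not compare the TGFb-alone levels, though those libraries entered the shared fit of all 36 libraries and its estimates of spread. Each drug's libraries enter 2 of the 3 pairs. Between Nint and Pirf, mt-Nd4 and mt-Cyb were called lower with Nint, 2 of 10 members, where 28.2% of all genes were called lower and 26.5% higher (54.6% in all). mt-Nd4 differed by -0.45 on the log2 scale (SE 0.16, adjusted p = 0.016, Nint against Pirf). Its highest Nint library, at 389 CPM, lay above the lowest Pirf library, at 334. mt-Cyb differed by -0.29 (SE 0.11, adjusted p = 0.0238), with levels of 496 to 628 CPM with Nint and 576 to 727 with Pirf. Its call was lost without Pirf replicates 1 or 2 (0.0586 and 0.059) and with no filter on low counts (0.0525). Against a fold of 1.2 neither mt-Nd4 (0.117) nor mt-Cyb (0.365) was called. mt-Nd5 and mt-Nd1 came close, at -0.38 and -0.28 (adjusted p = 0.0593 and 0.0612). Both were called without Nint replicate 1 (0.0364 and 0.0264), which made the number 4. Leaving out Pirf replicate 3 added mt-Nd1 (0.0471) and leaving out Pirf replicate 6 added mt-Nd5 (0.0337). On library totals alone the 4 complex I members and mt-Cyb were called, where the median of all genes was -0.16, and in a fit of the 12 libraries alone 4 members were. The complex IV members lay between 0.08 and 0.14 in the opposite direction, and their direction turned on library totals alone, with values of -0.01 to -0.07.

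Between Sora and Pirf edgeR called 0 members, where 42.1% of all genes were called, and 1 member had an unadjusted p under 0.05. That member was mt-Nd4, at -0.36 on the log2 scale (SE 0.16, adjusted p = 0.0609, 95% interval -0.68 to -0.04, Sora against Pirf). It was called by DESeq2 (0.0499) and not by limma. Without Sora replicate 5, mt-Nd4 and mt-Nd2 were called (adjusted p = 0.0374 and 0.0294), and without Sora replicate 4 or Pirf replicates 3 or 6 mt-Nd4 was (0.0394 to 0.0435). Between Sora and Nint 0 members were called, against 11% of all genes, 0 had an unadjusted p under 0.05, and DESeq2 and limma also called 0. The 95% interval of mt-Nd4 there was -0.23 to 0.40.

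**Figure D4:**
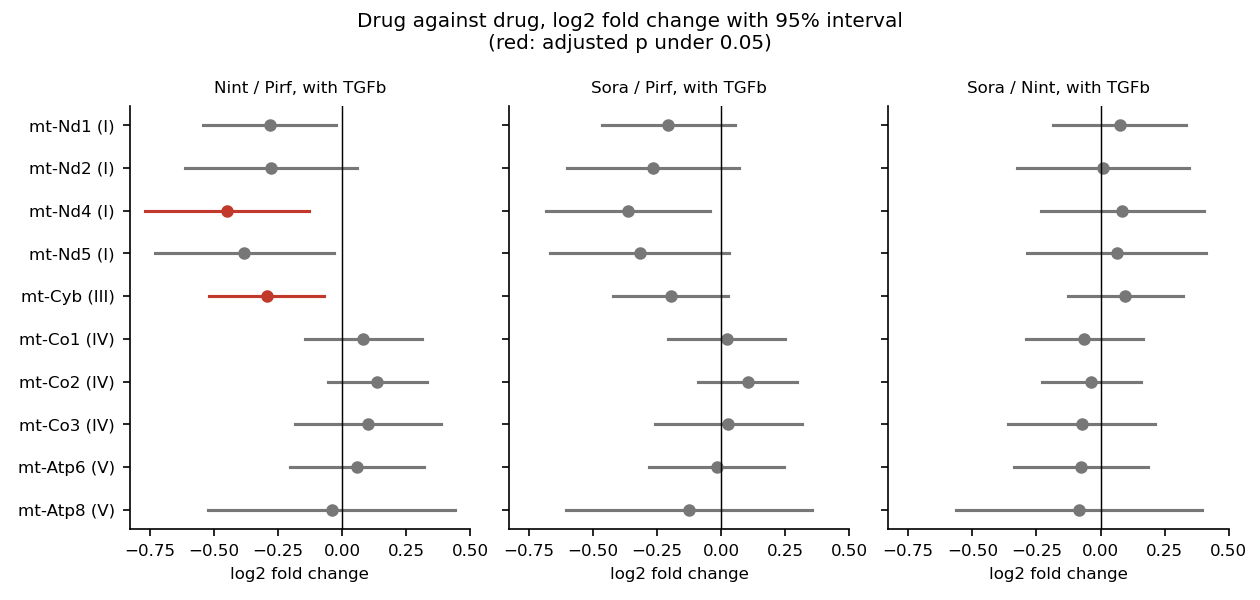
Log2 fold change of each member (points) with its 95% interval (lines) between the drugs, all with TGFb, with red for an adjusted p under 0.05. Complex I members and mt-Cyb lie to the left of 0 for Nint and for Sora against Pirf, with mt-Nd4 and mt-Cyb called for Nint, and the Sora against Nint panel is centred near 0.

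Since members of one library rose and fell together, each was also expressed as a percentage of the 10 members' counts in its own library. This share does not depend on the scaling between libraries. It is a comparison of one gene across groups and says nothing of levels between genes, because counts were not divided by gene length. It carries no test. On this measure 5 members did not overlap between untreated 72 and time 0, where 30.9% of all 15644 genes did not. The numbers were 3 for Pirf against TGFb alone (16.4% of all genes) and 3 for Nint against Pirf (27.7%). They were 0 for TGFb (9.06%), for Nint and Sora against TGFb alone (1.05% and 1.44%), for Sora against Pirf (11.7%) and for Sora against Nint (1.66%). These percentages are not a like background for the members. Dividing by the member sum takes out swings that members share within a library, but puts those swings into the other genes. In CPM the all-gene shares were higher, 49.3% for culture and 29.7% for Pirf, beside 0 members.

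In culture the composition moved towards mt-Co1. Its share of the member counts was 51.5% to 53.5% in the time-0 libraries (median 52.8%) and 59.3% to 63.5% in untreated libraries at 72 (median 61.2%), with no overlap. The shares of mt-Nd1, mt-Co2, mt-Co3 and mt-Atp6 were lower at 72 with no overlap. Since the shares of the 10 members make up a whole, these falls are not independent of the rise in mt-Co1. mt-Nd1 went from 2.73% ± 0.142 to 2.04% ± 0.109 (SD, n = 6), and mt-Atp6 from 7.93% ± 0.223 to 5.94% ± 0.303. mt-Atp8 went from 0.791% ± 0.0585 to 0.466% ± 0.178, the lowest ratio of the 10, at 0.589. The complex I members together went from 8.17% ± 0.911 to 6.23% ± 0.174, a log2 ratio of -0.39. With mt-Co1 left out of the sum that log2 ratio was -0.10. The log2 ratio of the complex I share was added for all comparisons after the data were seen.

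With TGFb alone the complex I share was 6.15% ± 0.694 (lowest 5.29%, median 6.28%, highest 6.91%), beside 6.02% to 6.48% without TGFb. With Pirf it was 8.17% ± 0.677 (lowest 7.19%, median 8.41%, highest 8.83%). All 6 Pirf libraries lay above all 6 with TGFb alone. A rise shared by all members of a library, as in TGFb-alone replicate 4, cancels in this share. No background over all genes was made for this sum, which includes mt-Nd1 and mt-Nd4. The log2 ratio was 0.41 (0.37 to 0.45 on leaving out one library at a time) and 0.36 with mt-Co1 left out of the sum. mt-Nd1, mt-Nd4 and mt-Cyb did not overlap singly, with 1.93% ± 0.190 against 2.43% ± 0.102 for mt-Nd1 and 2.76% ± 0.256 against 3.37% ± 0.140 for mt-Cyb. mt-Nd4 stood at 1.28% to 1.83% of member counts with TGFb alone and 1.85% to 2.46% with Pirf, the narrowest of the 3 gaps. Complex V was level, at 6.80% ± 0.205 with TGFb alone and 6.79% ± 0.448 with Pirf.

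The mean complex I share with Pirf was thus the same as at time 0 to 3 digits, where the libraries ran from 6.56% to 9.21%, but the rest of the composition was not. At time 0 complex V held 8.72% ± 0.252 of the member counts and mt-Co1 52.6% ± 0.724, while with Pirf they held 6.79% and 58.2% ± 1.77. With Nint the complex I share was 6.22% ± 0.370, and its highest library, at 6.63%, lay below the lowest with Pirf. With Sora it was 6.71% ± 0.470, and its highest library, replicate 4 at 7.48%, lay inside the Pirf range. The ratio of mt-Nd4 to mt-Co1 counts is given as a description, since mt-Nd4 was picked as the member called with Pirf. There were 3.96 ± 0.645 mt-Nd4 counts per 100 mt-Co1 counts at time 0, 2.34 ± 0.111 in untreated slices at 72 and 2.62 ± 0.443 with TGFb alone. With TGFb and Pirf, Nint and Sora the ratios were 3.72 ± 0.531, 2.57 ± 0.226 and 2.87 ± 0.414.

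**Figure D5:**
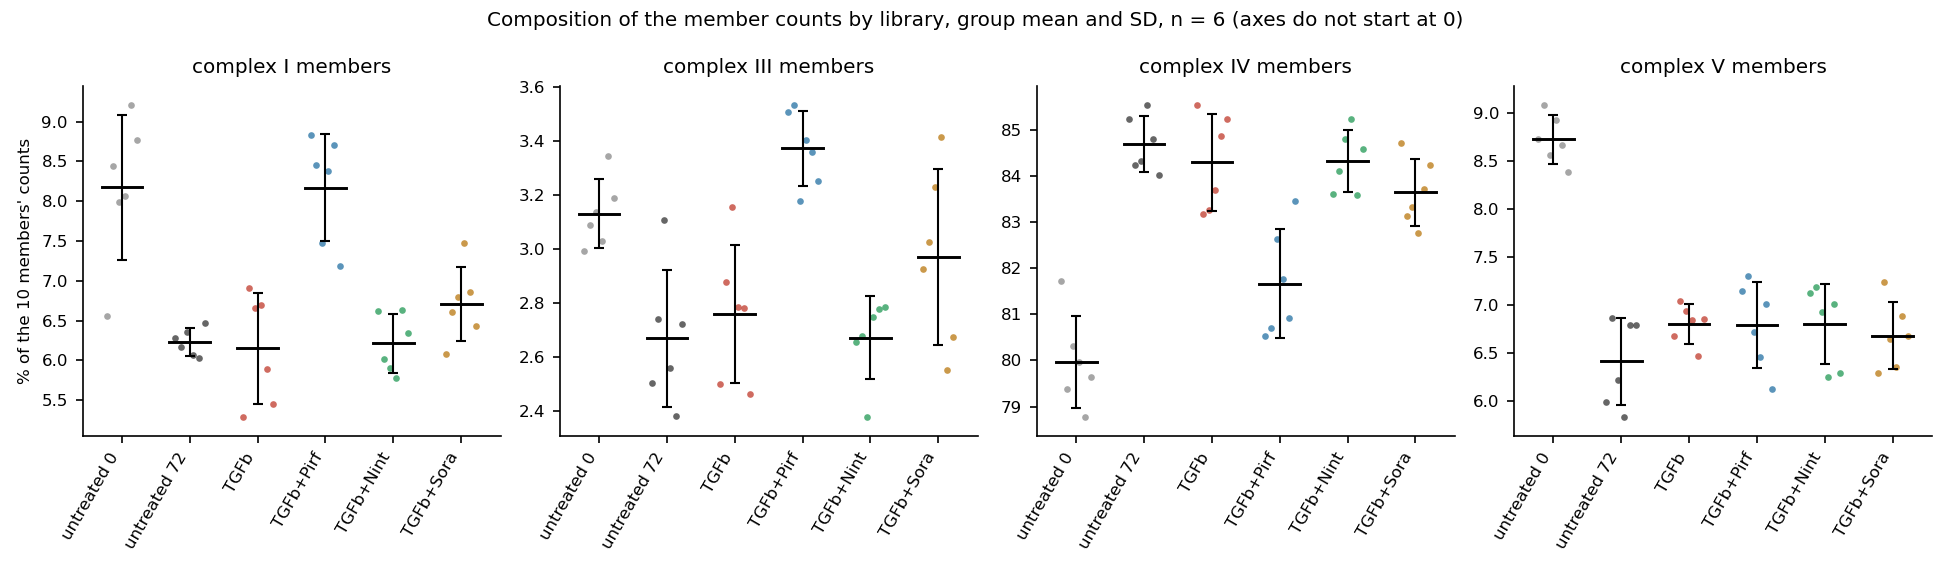
Percentage of the 10 members' counts held by the members of complexes I, III, IV and V in each library (points, 6 per group), with the group mean and SD, on axes that do not start at 0. The Pirf libraries hold 7.19% to 8.83% in complex I members, above every library with TGFb alone or with Nint, and the complex V share at time 0, 8.39% to 9.09%, lies above every library at 72.

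Within groups the members followed each other closely across libraries. After group means were taken off, the correlation of log2 CPM over the 36 libraries had a median of 0.831 over the 45 pairs of members. The 36 pairs without mt-Atp8 lay between 0.68 and 0.957, and the 9 pairs with it between 0.425 and 0.748. mt-Atp6 followed the mean of the other members most closely (r = 0.969) and mt-Atp8 least (r = 0.621). These points share library, depth and scaling factor, and the values are given as a description. mt-Co1 correlated at 0.886 with the other members within groups and at 0.548 when the differences between groups were left in.

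Among the tested genes outside the list, ENSRNOG00000043866 had the highest correlation with the mean log2 CPM of the members over the 36 libraries (r = 0.873), followed by ENSRNOG00000031053 (r = 0.826). The first lies outside the authors' coding table and stood at 11138 ± 2194 CPM at time 0, 8162 ± 1587 in untreated slices at 72 and 11152 ± 1714 with TGFb and Pirf. The second ranged from 26.1 to 66.7, from 10.4 to 28.1 and from 20.3 to 51.6 CPM in the same groups. After group means were taken off, ENSRNOG00000017874 had the highest correlation (r = 0.87) and ENSRNOG00000043866 the next (r = 0.849). ENSRNOG00000017874 differed from the members between groups, with 107 ± 23.9 CPM with TGFb alone and 59.0 ± 6.48 with TGFb and Pirf. None of these identifiers was paired with a name, so whether any is itself mitochondrially encoded was not tested.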

How the data were processed

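The authors deposited a table of expected counts for 32883 genes, made with RSEM on Rnor_6.0 per the submitters' processing notes, and a table of log2 CPM for 14984 coding genes, for which those notes name edgeR. The aligner is not given in the sources used here, nor are the annotation, the strand setting and the unit of time. The deposited log2 CPM equalled edgeR's own values from the counts. Expected counts were rounded to whole numbers, filtered with filterByExpr (15644 genes kept) and fitted over all 36 libraries with edgeR 4.0.16 (R 4.3.3), TMM factors and the quasi-likelihood test, with Benjamini-Hochberg adjustment over all genes and 95% intervals. limma 3.58.1 and DESeq2 1.42.0 were alternatives, beside other scalings, filters, a fold of 1.2, a replicate block and leaving out each library. Total counts were 15886958 to 23255558 at time 0 and 18971560 to 32933012 at 72. No 2 libraries of a group agreed within sampling noise.

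The members and lists were chosen with earlier results of these data known. All 10 members were named, and beside them the genes most correlated with the mean of the members. Lists of nuclear respiratory chain genes, other mitochondrially encoded genes, mitochondrial expression factors and cell type markers were not analysed here. The reason is that 0 identifiers could be paired with names in the reference tables. Since gene lengths and sequences of the members were not used here, levels are not compared between genes.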

Additional observations from a re-analysis of the deposited data

Results flagged for a closer look

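In groups of 6 libraries, single values stood apart from the rest by a gap that was large against the range of the group (Dixon's test at 95%, critical value 0.625). This was so in 13 of 126 groups of values, where chance alone gives about 1 in 20. Since members of one library move together, these values are not independent of each other.

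With TGFb alone, replicate 4 stood high for 4 genes. It held 760 CPM of mt-Cyb (next highest 555), 576 of mt-Nd1 (next 391), 391 of mt-Nd2 (next 245) and 422 of mt-Nd5 (next 298). With Sora, replicate 5 stood high, with 2.43% of all counts in the 10 members (next 1.97%). It held 15022 CPM of mt-Co1 (next 11027), 3606 of mt-Co3 (next 2454), 1594 of mt-Atp6 (next 1202) and 405 of mt-Nd2 (next 267).

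Replicate 1 with Nint held 474 CPM of mt-Nd1 (next 391), and untreated replicate 5 at 72 held 298 CPM of mt-Nd4 (next 253). In the composition, replicate 1 at time 0 was low for mt-Nd4, at 1.44% of member counts (next lowest 2.06%). Replicate 3 with Nint was low for mt-Cyb, at 2.38% of member counts (next lowest 2.66%).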

How the results depend on the processing

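The number of members called moved with the setting. With TMM factors made without the members the number stayed at 8 for culture, 1 for TGFb and 1 for Pirf against TGFb alone. It also stayed at 2 for Nint against Pirf and at 0 in the other comparisons. On library totals alone it was 5 for Pirf against TGFb alone, 5 for Nint against Pirf and 1 for Sora against Pirf, while the median of all genes moved to 0.15, -0.16 and -0.06 on the log2 scale. DESeq2 called 1 for Sora against Pirf. With no filter on low counts 1 was called for Nint against Pirf. In fits of the 12 libraries compared the numbers were 4 for Nint against Pirf, 2 for Pirf against TGFb alone and 1 for Sora against Pirf. Against a fold of 1.2 they were 4 for culture and 0 for TGFb, Pirf against TGFb alone and Nint against Pirf. Leaving out 1 library at a time gave 6 to 9 for culture, 0 to 2 for TGFb, 0 to 5 for Pirf, 1 to 4 for Nint against Pirf and 0 to 2 for Sora against Pirf, and 0 throughout for Nint, Sora and Sora against Nint. The log2 ratio of the complex I share in culture was -0.39 and moved to -0.099 without mt-Co1. The causes were not tested. The log2 ratio of the complex I share and its alternatives were both added after the data were seen. Depth limits little here, since the lowest member count was 1138.

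Replicate numbers were shared by all groups. Of 48 same-numbered pairs 15 correlated above 0.1 in their deviations from the group means, with a range of -0.313 to 0.561. In 0 of 8 comparisons did every pair. Differently numbered pairs were not correlated for reference, so this does not settle whether the replicate number pairs the samples. With the number as a replicate block 9 members were called in culture, 1 with TGFb, 1 with Pirf and 2 between Nint and Pirf, and 0 in the other comparisons. mt-Nd2 was added in culture (-0.35, adjusted p = 0.0451 by edgeR). The block turned the direction of mt-Atp8 for Pirf against TGFb alone (-0.012) and mt-Nd2 for Sora against Nint (-0.0090).

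No called member changed direction under an alternative that was run. The directions that turned were all of members not called. On library totals alone, for Pirf against TGFb alone the direction turned to 0.036 for mt-Co1, 0.019 for mt-Co2 and 0.065 for mt-Atp6. For Nint against TGFb alone the direction turned to 0.0068 for mt-Co2. For Sora against TGFb alone the direction turned to 0.00071 for mt-Co1, 0.071 for mt-Co2 and 0.010 for mt-Atp8. For Nint against Pirf the direction turned to -0.067 for mt-Co1, -0.012 for mt-Co2, -0.052 for mt-Co3 and -0.094 for mt-Atp6. For Sora against Pirf the direction turned to -0.036 for mt-Co1 and -0.032 for mt-Co3. For Sora against Nint the direction turned to 0.031 for mt-Co1, 0.065 for mt-Co2, 0.020 for mt-Co3, 0.019 for mt-Atp6 and 0.011 for mt-Atp8. With no filter on low counts, for Nint against TGFb alone the direction turned to 0.020 for mt-Nd5, 0.030 for mt-Co2 and 0.025 for mt-Atp8. With the number in the sample code as a factor, for Pirf against TGFb alone the direction turned to -0.053 for mt-Atp8. For Nint against TGFb alone the direction turned to -0.016 for mt-Nd2. For Sora against TGFb alone the direction turned to -0.0039 for mt-Cyb. For Sora against Nint the direction turned to 0.0064 for mt-Co2 and 0.052 for mt-Atp8. In fits of the 12 libraries compared, for Nint against TGFb alone the direction turned to 0.0034 for mt-Nd5, 0.012 for mt-Co2 and 0.0059 for mt-Atp8. With limma, for Nint against TGFb alone the direction turned to 0.0035 for mt-Co2. For Sora against Nint the direction turned to -0.011 for mt-Nd2. With DESeq2, for Nint against TGFb alone the direction turned to 0.0067 for mt-Co2 and 0.00032 for mt-Atp8. For Sora against Nint the direction turned to -0.00071 for mt-Nd2.

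Leaving out 1 library at a time turned the direction of 30 values of members not called, given here by the lowest and highest log2 fold change over the libraries left out. For TGFb these were -0.020 to 0.19 for mt-Nd2. For Pirf against TGFb alone these were -0.077 to 0.13 for mt-Atp8 and -0.15 to 0.0074 for mt-Atp6. For Nint against TGFb alone these were -0.073 to 0.18 for mt-Nd2, -0.081 to 0.13 for mt-Nd5, -0.13 to 0.065 for mt-Nd4, -0.044 to 0.069 for mt-Co2, -0.11 to 0.066 for mt-Atp6, -0.12 to 0.083 for mt-Atp8, -0.11 to 0.10 for mt-Nd1, -0.093 to 0.053 for mt-Co1, -0.15 to 0.043 for mt-Co3 and -0.14 to 0.020 for mt-Cyb. For Sora against TGFb alone these were -0.029 to 0.12 for mt-Cyb, -0.079 to 0.033 for mt-Co2, -0.061 to 0.17 for mt-Nd1, -0.13 to 0.19 for mt-Nd2, -0.031 to 0.15 for mt-Nd4 and -0.030 to 0.19 for mt-Nd5. For Nint against Pirf these were -0.016 to 0.10 for mt-Atp6 and -0.15 to 0.067 for mt-Atp8. For Sora against Pirf these were -0.12 to 0.027 for mt-Atp6, -0.075 to 0.049 for mt-Co1 and -0.10 to 0.075 for mt-Co3. For Sora against Nint these were -0.066 to 0.0035 for mt-Co2, -0.21 to 0.0031 for mt-Co3, -0.15 to 0.11 for mt-Nd2, -0.19 to 0.021 for mt-Atp8, -0.021 to 0.14 for mt-Nd1 and -0.018 to 0.13 for mt-Nd5.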
